A study of Homo sapiens with 12 samples.

Results

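The genes described are 8 of the PI3K and AKT pathway: the class I PI3K catalytic subunits PIK3CA and PIK3CB, the regulatory subunits PIK3R1 and PIK3R2, the kinases AKT1 and AKT2, the AKT phosphatase PHLPP1 and the AKT-binding protein THEM4. They were chosen by gene name, with earlier results of these data known, from a table of 20212 protein-coding genes. In it, 9 rows carry these 8 names because PIK3R2 stands on 2 rows. PANC-1, an established human pancreatic cancer cell line, was treated with DMSO (the control) or with 50 nM rapamycin for 60 min. Ribosome footprinting digests the mRNA that ribosomes leave uncovered and sequences the protected fragments (RF). Each treatment had 3 RF and 3 total RNA libraries, 12 in all. The RF and total RNA libraries with the same number in their titles were taken as 1 culture. All cultures are of this 1 line, and no source says whether they were grown separately, so the p-values measure the spread between these cultures only, which may be technical. The change in translation efficiency (TE) was the change in RF relative to total RNA.

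PI3K phosphorylates a membrane lipid after growth factor receptors are activated. Its catalytic subunit p110 (p110α from PIK3CA, p110β from PIK3CB) is held stable and inactive by a p85 regulatory subunit (p85α from PIK3R1, p85β from PIK3R2) until the complex docks on a phosphorylated receptor or adaptor. AKT binds the lipid and is phosphorylated at the membrane, and PHLPP1 removes the phosphate of its hydrophobic motif. THEM4, also called CTMP, is an AKT-binding protein with thioesterase activity. AKT signals to mTORC1, the complex that rapamycin inhibits, and mTORC1 signals back to restrain PI3K. The assay counts ribosomes on mRNA, not protein or phosphorylation.

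Among the mRNAs that lose ribosomes first when mTORC1 is inhibited are those with a terminal oligopyrimidine start, a C followed by a run of pyrimidines at the capped end. The first 20 bases of the annotated leading transcript of the 4 members on which the results turn most are shown for this reason, with the pyrimidines at the very start in capitals. The leading transcript was the complete coding isoform with the highest mean FPKM (fragments scaled to transcript length and library size), on GRCh37.
PHLPP1 (transcript PHLPP1-201, chr18:60382774-60382793, + strand): Cataatcccctggaacggcc
THEM4 (transcript THEM4-201, chr1:151881968-151881987, - strand): ggtagagtgcgccgtccagg
AKT1 (transcript AKT1-203, chr14:105262066-105262085, - strand): ggcggcggcaggaccgagcg
AKT2 (transcript AKT2-210, chr19:40791283-40791302, - strand): Tgggagggggcggtaagcgg
Only PHLPP1 of these starts with C, and its pyrimidine run is 1 base long. A start of C and at least 4 more pyrimidines was found in 0 of the 7 members that had such a transcript, and in 558 of 12724 tested genes (4.39%). The search was made on the sense strand at the first base only. These starts are annotated and were not mapped in PANC-1. AKT2-210 held a mean 17.7% of the AKT2 isoform FPKM, below AKT2-241 (23.7%), a coding isoform not annotated as complete.

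The leader before the start codon differed more between members than the start itself. PIK3R1-211 has an annotated leader of 580 bases with 5 upstream ATG triplets, and PIK3CA-201 one of 323 bases with 2. THEM4-201 has a leader of 53 bases and PHLPP1-201 one of 143 bases, both with 0 upstream ATG. The median of the 12724 genes was 137.5 bases, and 42.7% had an upstream ATG. The AKT1-203 leader was 84.3% G and C, above 95.6% of those genes, while that of PIK3R1-211 was at 57.6%.

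The RF libraries held 278835 to 1574723 counts and the total RNA libraries 78081241 to 94293744, so the RF values set the precision. Counts were scaled to library size (CPM) by edgeR's TMM method. The limit that a count of 0 allows, 3 counts, was 2.04 to 9.98 CPM in RF and at most 0.0388 CPM in total RNA (counting error only). The biological coefficient of variation was 54.9% in RF and 5.31% in total RNA. The joint TE model used a shared 24.4%, which is below that of RF alone. Of the total RNA libraries, DMSO 1 and 2 had a count for 16840 and 16858 genes and the other 4 for 19751 to 19847. Rapamycin total RNA library 2 also stood apart: 47 of 11974 genes with at least 1000 total RNA counts were over 1.5 times their highest value elsewhere in it, against 0 in each of the other 5. Labelled as pancreatic duct, the cells had KRT8, KRT18 and KRT19 at 1326 to 1765 FPKM and SOX9 at 19.96 to 22.5. The acinar, endocrine, fibroblast and endothelial markers with a value were at 1.53 FPKM or less, and of the leukocyte markers CD68 was at 69.0 to 88.3 while PTPRC and CD3E were at 0.215 or less.

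No member passed the test for a change in TE, RF or total RNA. PHLPP1 had fewer footprints after rapamycin in every culture, THEM4 had more footprints in the pooled cultures, and the RF values of the other 6 overlapped between treatments. At an adjusted p under 0.05 (edgeR's quasi-likelihood test, Benjamini-Hochberg over 13329 genes), 0 of the 8 members and 0 genes in all were called in TE, either lower (0%) or higher (0%). The same held for RF lower (0%) and higher (0%), and for total RNA lower (0%) and higher (0%). Over all genes, the smallest adjusted p was 0.181 in TE, 0.0509 in RF and 0.766 in total RNA. At an unadjusted p under 0.05, PHLPP1 was the 1 member lower in TE, beside 6.42% of all genes (856), and THEM4 the 1 member higher, beside 6.17% (823). PHLPP1 was also the 1 member lower in RF at that level, beside 1.92% of all genes (256). At that level 0 members were higher in RF (1.76% of all genes, 234), and 0 were lower (2.51%, 334) or higher (3.32%, 442) in total RNA. DESeq2's Wald test called 622 genes lower and 685 higher in TE, PHLPP1 and THEM4 among them, 1 and 4 in RF, and 4 and 25 in total RNA. With the DMSO total RNA libraries 1 and 2 left out, an alternative chosen after seeing the data, the TE log2 fold change was -2.17 for PHLPP1 and 3.18 for THEM4 (adjusted p = 0.9999 for both, edgeR).

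**Figure D1:**
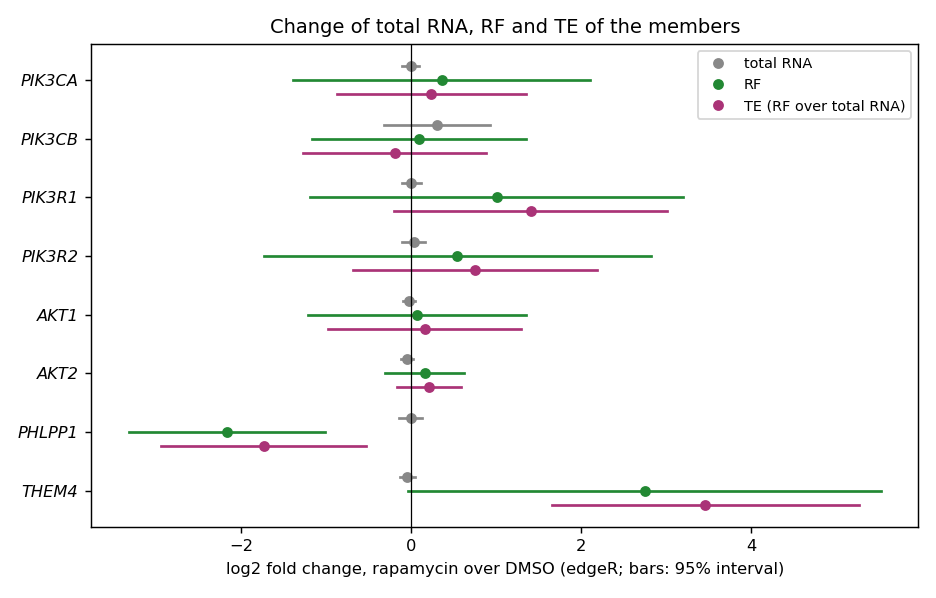
The log2 fold change of rapamycin over DMSO is plotted for each member in total RNA (grey), RF (green) and TE (pink), with the 95% interval of edgeR's fit as a bar. The total RNA interval is the narrowest of the 3 for every member, and the TE interval lies wholly below 0 for PHLPP1 (-2.94 to -0.52) and wholly above 0 for THEM4 (1.65 to 5.27).

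PHLPP1 (ENSG00000081913, chromosome 18, 60382774 to 60647666, + strand, GRCh37) was covered by 81, 56 and 79 footprints in DMSO cultures 1, 2 and 3 and by 28, 29 and 6 in rapamycin cultures 1, 2 and 3. Scaled to the library, these were 249, 70.4 and 53.7 CPM in DMSO and 23.2, 35.1 and 19.96 CPM in rapamycin. The groups did not overlap, although DMSO culture 1 was far above the other two and carries much of the difference in the means (124 ± 108 against 26.1 ± 7.97 CPM, SD, n = 3). Its total RNA was 11.5, 11.0 and 11.1 CPM in DMSO and 11.0, 11.9 and 10.8 CPM in rapamycin, with overlap. The TE log2 fold change was -1.73 (SE 0.564, unadjusted p = 0.00818, adjusted p = 0.245, edgeR), and the RF log2 fold change was -2.17 (SE 0.545, unadjusted p = 0.00103, adjusted p = 0.9999, edgeR). Per culture, log2 TE was 4.45, 2.72 and 2.33 in DMSO and 1.22, 1.65 and 1.05 in rapamycin, again without overlap. The exact permutation test of these values, two-sided, gave p = 0.1, the smallest that 3 cultures against 3 allow.

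PHLPP1 was the 1 member whose groups did not overlap in RF and the 1 member in TE, both with rapamycin lower. Of all tested genes, 4.21% (561) were lower without overlap in RF and 6.19% (825) in TE, and 4.80% (640) were higher in TE. In bulk cultures, fewer footprints in every cell and fewer cells with footprints cannot be told apart. The TE call depends on the cultures used: without DMSO culture 3 the log2 fold change was -2.28 (adjusted p = 0.0463, edgeR), and without DMSO culture 1 it was -1.21 (adjusted p = 0.348). The fit without DMSO culture 3 called 331 of 12461 genes lower in TE, against 0 in the main fit. Its DMSO total RNA libraries were 1 and 2 only, those with counts for fewer genes. The RF log2 fold change without DMSO culture 1 was -1.22 (adjusted p = 0.931, edgeR). In TE, DESeq2 gave -2.21 with an adjusted p of 0.0372, beside 622 of 13329 genes called lower. Over the 13 alternatives, the adjusted p ranged from 0.0372 to 1. In RF, the call was made with no filter on low counts (adjusted p = 0.00249, edgeR) and in none of the other 10 alternatives, where it was up to 0.99996. The fit with no such filter called 10 of 17767 genes lower in RF.

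PHLPP1 also held the most footprints for its message among the members. RF CPM over total RNA CPM was 11.1 in DMSO, above 87.9% of the tested genes, and 2.32 in rapamycin, above 80.0%. These are ratios of group means, and DMSO culture 1, at 249 RF CPM against 70.4 and 53.7, raises the one for DMSO. The median gene stood at 0.659 in DMSO and 0.660 in rapamycin. Its message was scarce, at 1.83 to 3.09 FPKM. Of its isoform FPKM, a mean 58.6% (15.5% to 85.6% by library) was assigned to PHLPP1-201, which encodes the phosphatase. This isoform was at 1.41 to 1.58 FPKM in 5 libraries, but DMSO culture 1 had only 0.0929 FPKM on it with the gene at 2.03. That is the culture with the highest PHLPP1 footprint value; whether the isoform value and the footprint value are related was not tested.

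**Figure D2:**
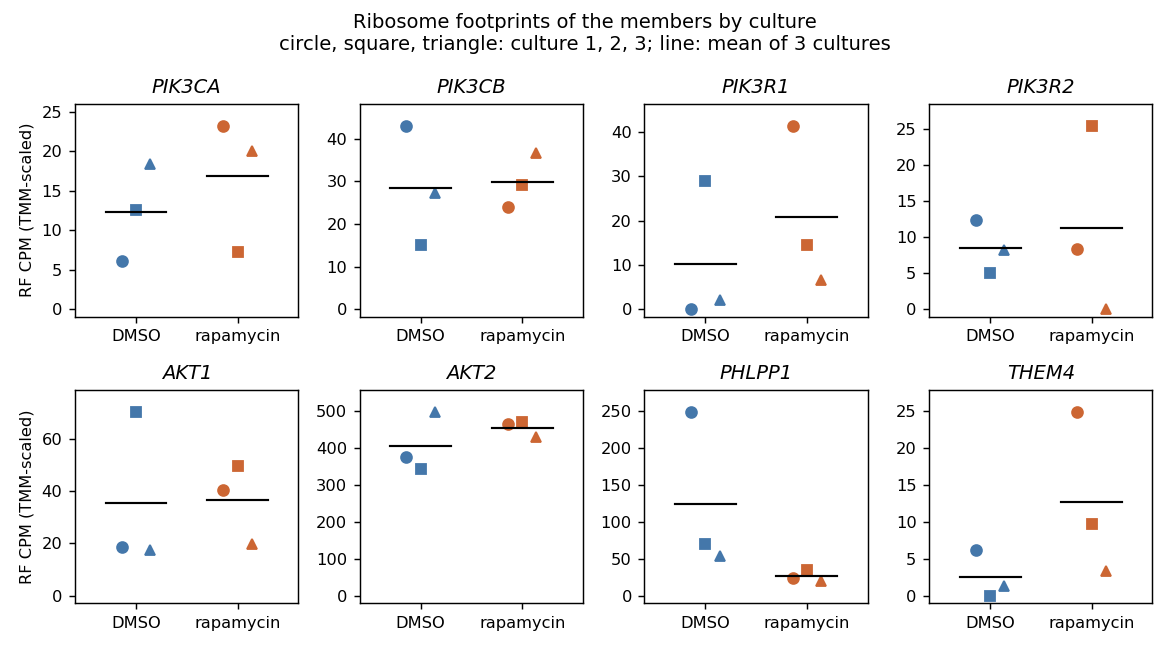
RF values of each member (CPM, TMM-scaled, linear axes from 0) are plotted by culture for DMSO (blue) and rapamycin (orange), with a line at the mean of the 3 cultures. The 3 rapamycin cultures of PHLPP1 sit between 19.96 and 35.1 CPM, below all 3 DMSO cultures, while the treatments overlap in each of the other 7 panels.

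THEM4 (ENSG00000159445, chromosome 1, 151843342 to 151882113, - strand) was nearly without footprints in DMSO, with 2, 0 and 2 counts, against 30, 8 and 1 after rapamycin. The scaled values were 6.15, 0 and 1.36 CPM against 24.9, 9.68 and 3.33 CPM. All DMSO values lay under the 3-count level of their library, as did that of rapamycin culture 3, which was below DMSO culture 1, so the groups overlapped. Total RNA was 25.8, 26.0 and 26.1 CPM in DMSO and 24.6, 25.3 and 25.7 CPM in rapamycin. The pooled RF ratio of rapamycin over DMSO was 10.8 (39 against 4 counts, 95% exact interval 3.91 to 41.7, counting error only). Culture 1 gave 30 of the 39 counts.

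The fitted TE log2 fold change of THEM4 was 3.46 (SE 0.844, unadjusted p = 0.00105, adjusted p = 0.224, edgeR), the largest of the members. Log2 TE per culture was -1.59, -3.42 and -2.78 in DMSO and 0.15, -1.06 and -2.16 in rapamycin (prior count 2). The mean difference was 1.57, and 2.37 with a prior count of 0.5, and the exact permutation test, two-sided, gave p = 0.2 with either. DESeq2 gave 3.47 with an adjusted p of 0.000494, beside 685 of 13329 genes called higher. The adjusted p over the 13 alternatives ranged from that value to 1. The fitted value was 2.40 without rapamycin culture 1 and 4.27 without DMSO culture 1. RF alone gave 2.75 (SE 1.32, unadjusted p = 0.0523, adjusted p = 0.9999, edgeR), with 1.76 and 3.85 without those cultures. RF over total RNA was 0.0965 in DMSO, above 2.88% of tested genes, and 0.501 in rapamycin, above 38.6%.

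The total RNA CPM of 2 members was lower in all rapamycin cultures than in any DMSO culture, THEM4 and AKT2, beside 6.61% of all genes (881). In FPKM both overlapped: AKT2 was at 886 in rapamycin culture 3 and 881 in DMSO culture 1, and THEM4 was at 11.7 in rapamycin culture 3, above the DMSO values of 11.4 to 11.6. The size was small in both, a log2 fold change of -0.04 (SE 0.0401, adjusted p = 0.783, edgeR) for THEM4 and of -0.05 (SE 0.0309, adjusted p = 0.766, edgeR) for AKT2. Without the DMSO total RNA libraries 1 and 2, these were -0.05 and -0.02.

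The catalytic subunits had few footprints and no detectable change. PIK3CA (p110α, ENSG00000121879, chromosome 3, 178865902 to 178957881, + strand) had 2, 10 and 27 footprints under DMSO and 28, 6 and 6 after rapamycin, or 6.15, 12.6 and 18.3 CPM against 23.2, 7.26 and 19.96 CPM. The values were interleaved, and the TE log2 fold change was 0.24 (95% interval -0.87 to 1.35, adjusted p = 0.881, edgeR). PIK3CB (p110β, ENSG00000051382, chromosome 3, 138371540 to 138553770, - strand) had 43.1, 15.1 and 27.2 CPM in DMSO and 24.04, 29.0 and 36.6 CPM in rapamycin. Its DMSO cultures spanned all the rapamycin values, and the TE log2 fold change was -0.19 (95% interval -1.27 to 0.88, adjusted p = 0.905, edgeR). A 2-fold gain of PIK3CA and a 2-fold loss of PIK3CB lie inside these intervals.

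PIK3CB was the 1 member with a library that stood apart in total RNA. It was at 59.7, 54.8 and 56.0 CPM in DMSO and at 55.1, 97.9 and 58.5 CPM in rapamycin. Rapamycin culture 2 was 1.64 times the highest other library, and 20 of 11974 genes had a larger ratio in it. The total RNA log2 fold change of 0.31 (SE 0.244, adjusted p = 0.771, edgeR) was 0.00 without that culture. The higher value was on the main coding isoform PIK3CB-207, which stood at 14.0 FPKM there and at 7.01 to 8.56 in the other 5 libraries. RF in the same culture was 29.0 CPM, the middle of the 3 rapamycin values.

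The regulatory subunit PIK3R1 (p85α, ENSG00000145675, chromosome 5, 67511568 to 67597649, + strand) varied widely between cultures of the same treatment. It had 0, 23 and 3 footprints under DMSO and 50, 12 and 2 after rapamycin, or 0, 28.9 and 2.04 CPM against 41.5, 14.5 and 6.65 CPM. The groups overlapped, and culture 2 gave 23 of the 26 DMSO counts. The TE log2 fold change was 1.41 (SE 0.751, unadjusted p = 0.0818, adjusted p = 0.459, edgeR). It was 4.04 without DMSO culture 2 (adjusted p = 0.164, edgeR), 0.39 without DMSO culture 3 and 0.27 without rapamycin culture 1, and the adjusted p over the alternatives was never below 0.164. Total RNA was 37.6 to 40.6 CPM in DMSO and 37.9 to 41.5 in rapamycin.

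The PIK3R2 values (p85β) are uncertain, since most exon bases of its 2 rows lie in an exon of the other row or of the neighbour IFI30, and how reads on those bases were assigned was not tested. ENSG00000105647 (chromosome 19, 18263973 to 18281342, + strand) is the gene itself and had 0 RF counts in all 6 libraries and 638 total RNA counts. ENSG00000268173 (18263968 to 18288927), which the annotation used here marks as a readthrough gene into IFI30, had 51 RF and 13370 total RNA counts under the same name. Of 5163 exon bases of the first, 1221 lie in no exon of the second or of IFI30, and of 5142 of the second, 203 do. The FPKM values stood the other way round, at 5.32 to 7.28 for ENSG00000105647 and at 0.0955 to 0.357 for ENSG00000268173. The counted row had 4, 4 and 12 footprints under DMSO and 10, 21 and 0 after rapamycin, or 12.3, 5.03 and 8.15 CPM against 8.29, 25.4 and 0 CPM. The rapamycin cultures spanned the DMSO values. Its fitted TE log2 fold change was 0.75 (SE 0.668, adjusted p = 0.682, edgeR), but the mean difference in log2 TE per culture was -0.25 (exact permutation test, two-sided, p = 0.9), so not even the direction is settled.

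AKT1 (ENSG00000142208, chromosome 14, 105235686 to 105262088, - strand) had 6, 56 and 26 footprints under DMSO and 49, 41 and 6 after rapamycin. These were 18.5, 70.4 and 17.7 CPM against 40.6, 49.6 and 19.96 CPM, and the DMSO cultures spanned the rapamycin ones. The TE log2 fold change was 0.16 (95% interval -0.98 to 1.30, adjusted p = 0.931, edgeR), and it was 1.18 without DMSO culture 2 (adjusted p = 0.201, edgeR). It was -0.01 without DMSO culture 1, -0.35 without DMSO culture 3 and -0.07 without rapamycin culture 2. AKT1 total RNA was 217 to 229 CPM in DMSO and 217 to 222 in rapamycin.

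AKT2 (ENSG00000105221, chromosome 19, 40736224 to 40791443, - strand) was the 1 member with deep RF counts, at 122, 274 and 733 in DMSO and 560, 389 and 129 in rapamycin. The scaled values were 375, 344 and 498 CPM against 464, 471 and 429 CPM, so the rapamycin cultures lay inside the DMSO range. The TE log2 fold change was 0.21 (SE 0.175, 95% interval -0.16 to 0.58, adjusted p = 0.659, edgeR), the narrowest interval of the 8. A fall in TE by more than 0.16 on the log2 scale lies outside it, but the joint model's shared variation was below that of RF alone. In RF alone the log2 fold change was 0.16 (SE 0.220, 95% interval -0.30 to 0.63, adjusted p = 0.9999, edgeR). A larger fall than 0.16 lies inside that RF interval. Log2 TE per culture was -2.39, -2.56 and -1.96 in DMSO and -2.03, -2.03 and -2.16 in rapamycin (exact permutation test, two-sided, p = 0.4). Total RNA was 1978, 2043 and 1945 CPM in DMSO and 1905, 1929 and 1928 CPM in rapamycin.

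Apart from PHLPP1, the members carried fewer footprints per message than most genes in DMSO. RF over total RNA was 0.159 for AKT1, 0.172 for PIK3CA, 0.204 for AKT2, 0.265 for PIK3R1, 0.337 for the counted PIK3R2 row and 0.5005 for PIK3CB, against the median of 0.659. AKT1 was above 6.99% of the tested genes and AKT2 above 10.8%. Total RNA counts cover whole exons and footprints mostly the coding part, so a long untranslated region can lower this ratio. Its part in the values of these members was not tested.

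Per length, total RNA placed the members over a wide range, and the order of the group means was the same in both treatments. AKT2 was at 900 ± 24.9 FPKM in DMSO and 877 ± 9.91 in rapamycin (SD, n = 3), rank 54 of the genes listed. AKT1 followed at 75.6 ± 1.91 and 75.2 ± 1.74 FPKM, 11.8-fold below AKT2 on the mean of all 6 libraries. PIK3CB (13.1 to 23.5 FPKM) and PIK3CA (13.1 to 16.2) overlapped and could not be ordered. Below them and without overlap came THEM4 (11.3 to 11.7), PIK3R1 (8.13 to 9.60), PIK3R2 on ENSG00000105647 (5.32 to 7.28) and PHLPP1 (1.83 to 3.09). Summed RF counts per kilobase of coding length were 1680 for AKT2 and 128 for AKT1, and 24.7 to 59.7 for PIK3CA, PIK3CB, PIK3R1, PHLPP1 and THEM4. These sums are over both treatments, which took unequal shares of them (216 DMSO and 63 rapamycin counts for PHLPP1, 4 and 39 for THEM4), so the order among the latter 5 is not read.

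**Figure D3:**
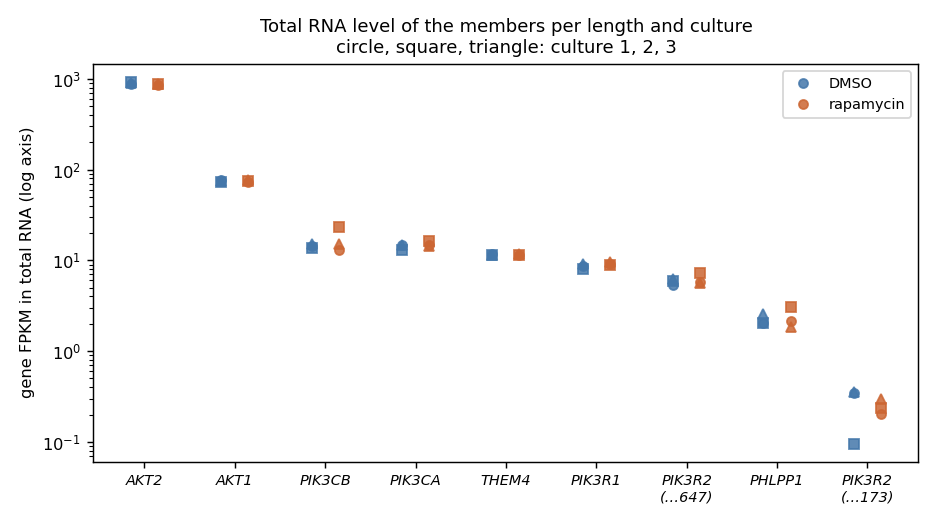
Gene FPKM in total RNA (log axis) is plotted for each of the 9 rows and 6 cultures, DMSO in blue and rapamycin in orange, with the rows of PIK3R2 told apart by the last 3 digits of their identifiers. AKT2 stands 11.8-fold above AKT1, and the raised value of PIK3CB is rapamycin culture 2 at 23.5 FPKM.

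AKT2 is known to be amplified in some pancreatic cancers and in PANC-1. Copy number was not measured here, and the genes beside AKT2 were looked at after its level had been seen. Within 1 Mb on the side of lower coordinates, 20 of 30 genes were at 1 FPKM or more, with a median of 152 FPKM, and 11 of the 30 were over 100. Within 1 Mb on the other side, 17 of 29 were at 1 FPKM or more, with a median of 11.6, and 0 of the 29 were over 100. Of all 20200 genes listed, 3.87% were over 100 FPKM, and the median of those at 1 FPKM or more was 14.7. PSMC4 (1500 FPKM), a proteasome ATPase, and FBL (1426 FPKM), the nucleolar methyltransferase fibrillarin, lie 249 and 399 kb away on the first side. C19orf47 (13.6 FPKM) and PLD3 (30.5 FPKM) lie 34.0 and 62.9 kb away on the second. Within 1 Mb, the values over 100 FPKM thus stood on 1 side of AKT2, while CNTD2 (0.603 FPKM) and TTC9B (1.56 FPKM), 3.62 and 11.9 kb away on that side, were low. The cause was not tested.

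**Figure D4:**
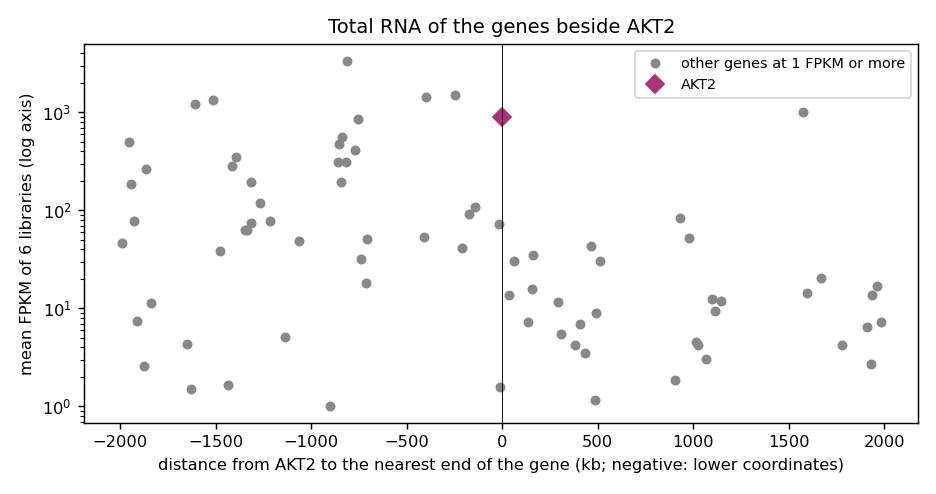
The mean FPKM of 6 total RNA libraries (log axis) is plotted for each gene at 1 FPKM or more against its distance from AKT2 in kb, negative toward lower coordinates, with AKT2 as a diamond at 889 FPKM. Within 1000 kb, 11 genes on the left and 0 on the right lie over 100 FPKM.

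The rest of the pathway was described from lists of subunits, kinases, phosphatases, modulators and substrates, 95 genes in all with the members, of which 84 were tested. None passed the test in TE, RF or total RNA. At an unadjusted p under 0.05, 5 were lower and 6 higher in TE, beside 6.42% and 6.17% of all genes, and without the members 4 of 76 were lower and 5 of 76 higher. Without overlap between treatments, 5 of the 84 were lower in TE and 2 higher, beside 6.19% and 4.80% of all genes. The median TE log2 fold change of the 84 was -0.02, against -0.06 for all genes tested. By role, it was -0.02 for 6 PI3K catalytic subunits, 0.75 for 5 regulatory subunits (the fitted value of PIK3R2 itself, whose direction was not settled), 0.18 for 2 AKT kinases, -0.03 for 19 phosphoinositide phosphatases, -0.26 for 15 AKT phosphatases, 0.00 for 12 AKT modulators and -0.13 for 25 AKT substrates. PHLPP2, the paralogue of PHLPP1, stood at 0.55 in TE (SE 0.497, unadjusted p = 0.287, adjusted p = 0.690, edgeR), with overlapping cultures.

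**Figure D5:**
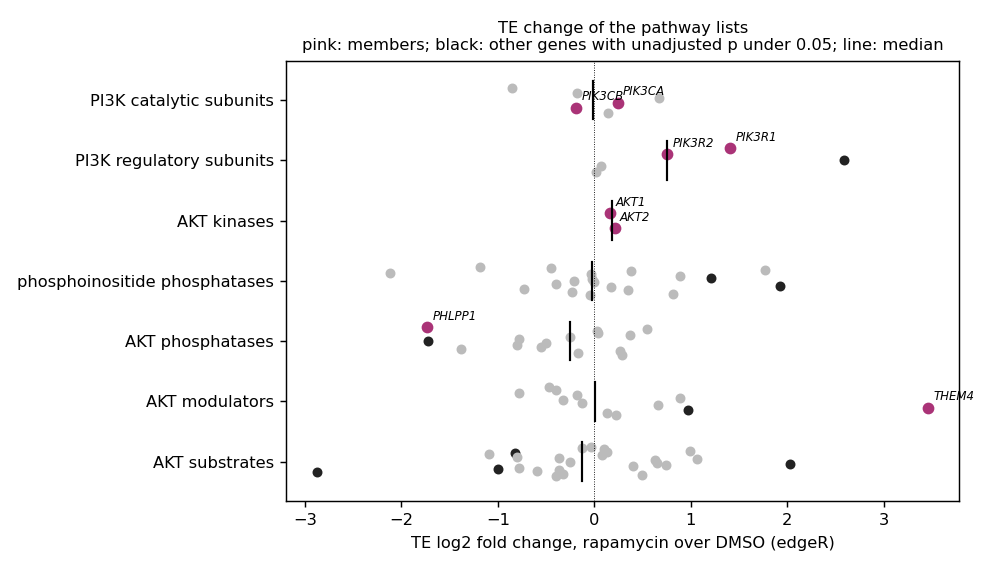
The TE log2 fold change (rapamycin over DMSO) of each tested gene is plotted by list, members in pink, other genes with an unadjusted p under 0.05 in black and the rest in grey, with a line at each list's median. PHLPP1 (-1.73) and THEM4 (3.46) lie toward the ends of their lists, and the AKT and catalytic subunit members lie within 0.25 of 0.

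The other pathway genes with the smallest TE p in each direction were read beside the members. On the lower side were CDKN1B, PPP2R2B and TBC1D4. CDKN1B, the cell cycle inhibitor p27 that AKT phosphorylates, had 36.9, 32.7 and 24.5 RF CPM in DMSO and 16.6, 14.5 and 16.6 CPM in rapamycin, without overlap, and a TE log2 fold change of -0.83 (unadjusted p = 0.0200, adjusted p = 0.311, edgeR). PPP2R2B, a regulatory subunit of the phosphatase PP2A, had 33.8, 25.1 and 8.83 CPM against 7.46, 3.63 and 0 CPM (-1.73, unadjusted p = 0.0216, adjusted p = 0.318, edgeR). Its values did not overlap, but those in rapamycin rest on 9, 3 and 0 counts. The 3-count level of rapamycin RF library 3, which had the 0, was 9.98 CPM, above DMSO culture 3. TBC1D4, the substrate AS160, was at -2.88 (unadjusted p = 0.0315, adjusted p = 0.354, edgeR), with DMSO culture 2 at 77.9 CPM and the other 5 libraries at 3.08 to 6.65.

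On the higher side were INPP5K, PIK3R3 and NOS3. INPP5K, an inositol 5-phosphatase, had 18.5, 6.28 and 14.3 RF CPM in DMSO and 29.8, 24.2 and 29.9 CPM in rapamycin, without overlap, at a TE log2 fold change of 1.21 (unadjusted p = 0.00627, adjusted p = 0.238, edgeR). PIK3R3, the regulatory subunit p55γ, had 3.08, 23.9 and 10.9 CPM against 14.9, 131 and 106 CPM (2.59, unadjusted p = 0.00705, adjusted p = 0.241, edgeR), and rapamycin culture 1 lay below DMSO culture 2. NOS3, the endothelial nitric oxide synthase, had 33.8, 0 and 5.43 CPM against 14.1, 49.6 and 43.2 CPM (2.02, unadjusted p = 0.0274, adjusted p = 0.340, edgeR), with overlap. Total RNA of these 6 genes had log2 fold changes between -0.08 and 0.06.

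The tested genes most like PHLPP1 in log2 RF CPM over the 6 RF libraries, out of 6131 with at least 100 RF counts, were SSB (Pearson's r = 0.977), RNF7 (r = 0.972) and the gene listed as SOS 1 (r = 0.952), and 4 genes had r over 0.95. Those most like THEM4 included VWA9 (r = 0.988) and OARD1 (r = 0.978), with 10 genes over 0.95. The 6 points share their libraries and depths, and those of THEM4 rest on 43 RF counts in all. These are the highest values out of 6131 genes, so they describe these libraries only and were not tested.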

How the data were processed

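Per the paper's methods, the authors used HISAT2 to align both kinds of reads to GRCh37, and with featureCounts they made the deposited raw counts, which cover exons of protein-coding genes and hold reads with 1 alignment. Gene and isoform FPKM of total RNA were deposited by the authors from Cufflinks 2.2.1 and Cuffnorm. Other versions are not given in the sources used here. The authors' TE, fold change and p-value columns, a column of mean DMSO RNA counts and the Cuffnorm count tables were not used.

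Genes with at least 10 counts over the RF and 10 over the RNA libraries were tested with edgeR 4.0.16 in R 4.3.3 (quasi-likelihood, robust, TMM within library type). The TE test, in place of RiboDiff, was the library type by treatment interaction, and RF and total RNA were also fitted alone. DESeq2 1.42.0, limma 3.58.1 on log2(FPKM + 1), other filters and scalings, blocks and leaving out each culture were alternatives. Intervals are at 95%.

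The members and lists were chosen with earlier results of these data known. All members were named. Of other listed genes, those past an adjusted p of 0.05 and the 3 with the smallest TE p in each direction were named. For the 2 members with the smallest TE p, the 3 genes most like each were named. Values of some genes under these rules are left out. PHLPP2 and the genes beside AKT2 were named after their values were seen. Transcripts and positions are from GENCODE 44 lifted to GRCh37, whose version differs from the authors'. With 3 replicate numbers in each group, same-numbered libraries did not deviate together (r from -0.118 to -0.061 in RF and from -0.216 to -0.107 in total RNA), so the numbers were not used as pairs. Within a treatment, RF and total RNA libraries of the same number did not deviate together either (r from -0.096 to 0.0081). The values of log2 TE per culture thus rest on the numbering in the titles alone.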

Additional observations from a re-analysis of the deposited data

How the results depend on the processing

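Depth limited the RF values: PIK3CA, PIK3R1, PIK3R2 and THEM4 each had at least 1 RF library with 3 counts or fewer. The main counts of called genes were 0 in both directions in TE, RF and total RNA. DESeq2's Wald test called 622 lower and 685 higher in TE, 1 and 4 in RF, and 4 and 25 in total RNA. With no filter beyond 1 count, RF had 10 lower and 10 higher. A replicate block by number gave 2 lower and 4 higher in RF and turned PIK3R2 in RF to -0.0816. A replicate block by culture gave 0 and 0 in TE (at an unadjusted p under 0.05, 287 lower and 188 higher), the block gave 0 and 0 in total RNA, and no call on a member changed with a block. Limma called 1 gene higher in total RNA with a pseudocount of 1 or 0.1, and 2 with no minimum FPKM.

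Leaving out 1 culture moved TE to 0 to 331 lower (331 without DMSO culture 3) and 0 to 65 higher (65 without DMSO culture 3, 5 without rapamycin culture 1), RF to 0 to 1 lower and 0 to 5 higher, and total RNA to 0 to 4 lower and 0 to 683 higher (683 without DMSO culture 3). The TE log2 fold change over these ranged from -0.37 to 0.69 for PIK3CA, -0.43 to 0.10 for PIK3CB, -0.18 to 1.19 for PIK3R2 and -0.35 to 1.18 for AKT1, each with both signs. In RF it ranged from -0.23 to 0.46 for PIK3CB, -0.73 to 1.02 for PIK3R2 and -0.31 to 1.07 for AKT1. In total RNA it ranged from -0.0431 to 0.0271 for PIK3CA, -0.0360 to 0.0342 for PIK3R1, -0.0358 to 0.0733 for PIK3R2 and -0.0450 to 0.0287 for PHLPP1.

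Total RNA values near 0 changed sign under other settings too. PIK3CA was 0.00262 and PHLPP1 0.00679 with at least 30 counts, PIK3R1 was -0.0110 with no filter, and PHLPP1 was 0.0105 with the DMSO total RNA libraries 1 and 2 left out, which makes DMSO 1 library assumed to vary like the others. With limma, PIK3CA was 0.0922 (pseudocount 1, with or without a minimum) or 0.0979 (pseudocount 0.1), PHLPP1 0.0424 or 0.0522, and PIK3R2 -0.0168 with a pseudocount of 1. The cause was not tested. Of the alternatives for members, 94 in TE, 80 in RF and 98 in total RNA kept the direction and the side of the threshold. The direction was reversed in 7, 7 and 22, and a call was gained in 3, 1 and 0. As no member was called in the main fits, keeping the side means that it stayed uncalled.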
